A study of Mus musculus with 11 samples.

Results

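The FVB129B6 and FVB mammary glands of pregnant mice made up 5 of the 11 arrays of the series, 3 for FVB129B6 and 2 for FVB, and were described here across 334 mouse miRNAs. All glands were normal tissue taken from female mice at day 17.5 of pregnancy, with no transgene or treatment named for either group. FVB129B6 is the strain background of the BRCA1 and p53 mutant tumor model of the study, and FVB is the background of most of its transgenic models. The arrays were chosen by strain label alone, without use of any measured value. The 3 Balb/C gland arrays of the same slide entered the fit to share its estimate of the spread. They also counted in the detection filter, in some scalings and in a contrast with FVB129B6. The 3 C3(1)/Tag tumor arrays were used in 1 alternative.

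MicroRNAs are short RNAs that guide the silencing complex to messenger RNAs, mostly through the seed, bases 2 to 8 of the mature strand, so that miRNAs with 1 seed form a family. The late-pregnant gland holds a large epithelium together with fat, blood, vessels and connective tissue, and several miRNAs are known marks of such cells: miR-1, miR-206 and miR-133 of striated muscle, miR-451 and miR-144 of red blood cells, the miR-200 family of epithelium. In whole glands, fewer cells of a type and less of a miRNA in each cell cannot be told apart.

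The mature sequences of the miRNAs with the largest differences are shown first, since the seed decides which of them belong together. Each is a RefSeq sequence (GRCm38.p6) found by its match to the array probe, with the seed in capitals. Of the 334 miRNAs, 271 were matched in this way. The first 5 were higher in FVB129B6 glands.
miR-206: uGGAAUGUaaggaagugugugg
miR-207: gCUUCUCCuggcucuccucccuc
miR-667: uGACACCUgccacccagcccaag
miR-346: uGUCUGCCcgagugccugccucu
miR-672: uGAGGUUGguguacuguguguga
The next 7 were lower in FVB129B6 glands.
miR-451: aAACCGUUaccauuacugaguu
miR-183: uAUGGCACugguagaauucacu
miR-339: uCCCUGUCcuccaggagcucacg
miR-705: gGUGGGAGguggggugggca
miR-690: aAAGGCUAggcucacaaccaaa
miR-22: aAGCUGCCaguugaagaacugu
miR-762: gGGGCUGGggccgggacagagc
The last 3 are the neighbours of miR-183 and miR-451 in the genome.
miR-182: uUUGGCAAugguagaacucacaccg
miR-96: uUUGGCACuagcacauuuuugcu
miR-144: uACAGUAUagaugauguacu
No pair of these 15 sequences shared a seed. miR-183 lies at chr6:30169711-30169732 (minus strand), miR-96 at chr6:30169506-30169528 (minus strand) and miR-182 at chr6:30165962-30165986 (minus strand), in 1 cluster. miR-144 at chr11:78073047-78073066 (plus strand) and miR-451 at chr11:78073186-78073207 (plus strand) form another. miR-206 lies at chr1:20679055-20679076 (plus strand) and miR-667 at chr12:109720061-109720083 (plus strand), in the imprinted Dlk1-Dio3 region. The base composition ranged widely: G and C made up 81.8% of miR-762 and 75% of miR-705, and 36.4% of miR-451.

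A level below is the log2 green (Hy3) signal of a miRNA minus the median of its array, averaged over its 4 spots, so that a level of 0 is the middle of an array. Levels of different probes were not compared. The scanner program marks each spot that stands well above background, and a miRNA with such marks on at least 50% of its spots was taken as measured above background on that array. Between 254 and 262 of the 334 miRNAs met this on the FVB129B6 arrays, and 209 and 229 on the FVB arrays. The FVB arrays were dimmer, with median green intensities of 188.5 and 245.5 against 520.5 to 671.5. The lowest level of a miRNA measured above background was -2.86 and -2.80 on them against -4.42 to -4.13 on the FVB129B6 arrays. A miRNA could stand above that lowest level without being measured, such as miR-219 at -1.95 on FVB replicate 2. All gland arrays lay on 1 slide, where the FVB arrays filled column 4 and the FVB129B6 arrays lay in columns 1 and 2, so that column and strain cannot be told apart. Over the miRNAs tested, levels on the 3 FVB129B6 arrays correlated with r from 0.992 to 0.993, the 2 FVB arrays with r of 0.981, and FVB129B6 with FVB arrays with r from 0.932 to 0.956. These are correlations across miRNAs within arrays, which are not independent replicates. Nothing in the labels says that the arrays of a strain came from separate mice, so p-values measure only the spread between these arrays.

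The comparison asked which miRNAs differ between the strain backgrounds of the tumor models. At an adjusted p threshold of 0.05, limma's contrast of FVB129B6 minus FVB called 103 of 261 miRNAs (39.5%), 21 higher (8.05%) and 82 lower (31.4%) in FVB129B6 glands. Without FVB129B6 replicate 1, 53 were called lower. The groups of arrays did not overlap for 40 miRNAs in the higher direction (15.3%) and 128 in the lower one (49.0%). The median difference over the 261 was -0.39 on the log2 scale, so a miRNA with that difference stood where most of the array stood. When the 75th percentile of each array set the scale, the median difference was -0.03 and 83 miRNAs were called (31.8%), 40 higher (15.3%) and 43 lower (16.5%), of which 64 in all were also called in that direction under the array median. A scale set on the miRNAs well above background on all 8 gland arrays gave a median of 0.13 with 50 higher and 22 lower. The sign of the difference was the same under 5 settings (array median, 75th percentile, median of the miRNAs well above background, quantile normalization, and normexp background correction) for 141 of the 261 miRNAs and changed for 120. Called with 1 sign under these 5 settings were 36 miRNAs (13.8%), 15 higher (5.75%) and 21 lower (8.05%), and the named miRNAs below come from them. The weight of the calls moved between the directions with the scale, and these 36 were selected for keeping theirs.

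**Figure D1:**
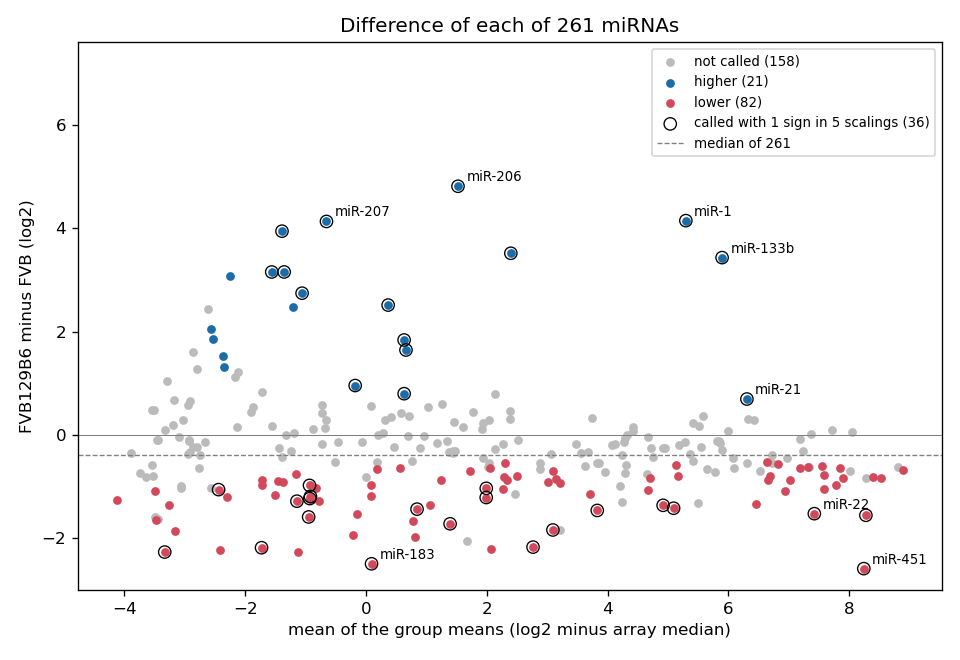
Difference of FVB129B6 minus FVB (log2) of each of the 261 miRNAs tested, against the mean of the group means of its level (log2 minus array median). Blue points were called higher (21), red points lower (82) and grey points not called (158), black rings mark the 36 called with 1 sign under 5 settings, and the dashed line is the median difference of -0.39; most points lie below 0, and miR-206, miR-1 and miR-207 lie highest.

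**Figure D2:**
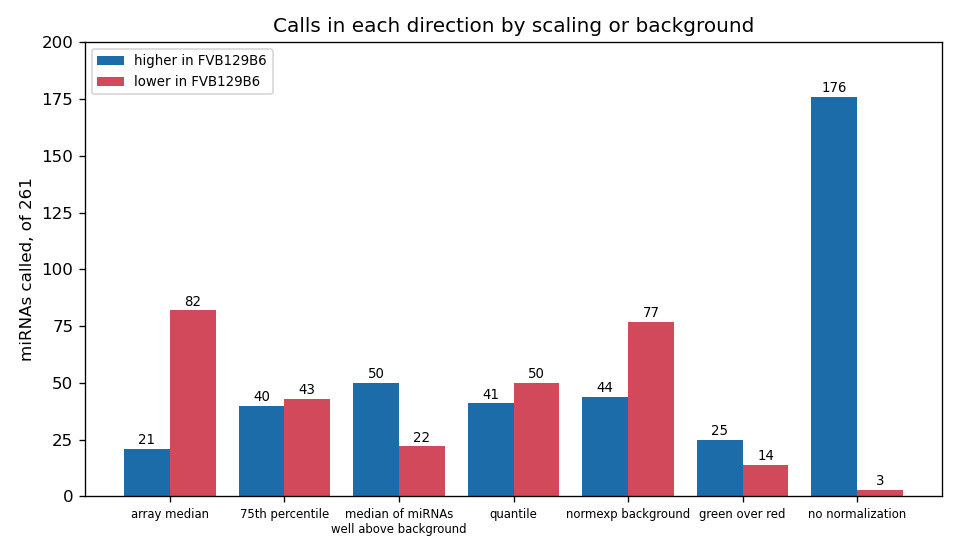
Number of miRNAs called higher (blue) and lower (red) in FVB129B6 glands among the 261 tested, under 7 ways to scale or correct the arrays. The split ran from 21 higher and 82 lower with the array median to 50 and 22 with the median of miRNAs well above background, and to 176 and 3 with no normalization.

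Of the 10 miRNAs with the largest higher differences, 4 were miRNAs of striated muscle. miR-206, a muscle-specific miRNA that promotes myoblast differentiation, had levels of 3.88, 3.70 and 4.21 on the FVB129B6 arrays and -1.83 and 0.064 on the FVB arrays. The groups did not overlap, although the FVB arrays differed from each other by more than the FVB129B6 arrays did. Its level was 28.2-fold higher in FVB129B6 glands, a log2 difference of 4.82 ± 0.54 (SE, adjusted p = 0.00275). miR-1, the other main muscle miRNA, had levels of 7.25, 7.44 and 7.41 on the FVB129B6 arrays and 2.38 and 4.06 on the FVB arrays, a difference of 4.15 ± 0.47 (SE, adjusted p = 0.00275). Only 5 base edits separate the probes of miR-1 and miR-206, so their signals may not be fully separate. miR-133b, which is transcribed together with miR-206, had levels of 7.50, 7.65 and 7.68 on the FVB129B6 arrays and 2.80 and 5.56 on the FVB arrays. Its difference was 3.43 ± 0.70 (SE, adjusted p = 0.00705), and that of miR-133a* was 3.52 ± 0.65 (SE, adjusted p = 0.00510), with levels of 4.13, 4.12 and 4.22 in FVB129B6 and -0.63 and 1.91 in FVB. In all 4, FVB replicate 1 was the lowest array and FVB replicate 2 lay between it and the FVB129B6 arrays. Without FVB replicate 1 the differences of miR-206, miR-1, miR-133a* and miR-133b were 3.87, 3.31, 2.25 and 2.05, and without FVB replicate 2 they were 5.76, 4.99, 4.79 and 4.82. They were called in every fit that left out 1 array.

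Of the 6 muscle miRNAs on the array, 5 were tested, 4 were higher and none lower, against 8.05% higher among all miRNAs. The fifth, miR-499, a miRNA of slow muscle and heart, had a difference of -1.62 ± 0.56 (SE, adjusted p = 0.0543) and was well above background on 1 of the 5 arrays. miR-208, of heart muscle, was well above background on none of the 5. The summed level of the list, the log2 of its summed linear levels, was 8.52 to 8.69 on the FVB129B6 arrays, 3.74 and 6.11 on the FVB arrays and 9.24 to 10.03 on the Balb/C arrays. Whether these levels move with other differences was not tested.

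The other 6 of the 10 highest miRNAs belong to none of the cell type lists used here. miR-207 had levels of 1.39, 1.52 and 1.32 on the FVB129B6 arrays and -2.65 and -2.79 on the FVB arrays, a difference of 4.13 ± 0.56 (SE, adjusted p = 0.00335). Its arrays were tightly grouped in both strains, but its FVB levels lay near -2.80 and -2.86, the lowest levels measured above background on those arrays. With normexp its difference was 1.42 (limma adjusted p = 0.0090). In the red (Hy5) channel, whose RNA the sources used here do not give for these arrays, miR-207 differed by 4.56. Its green over red ratio differed by -0.078 and was not called (adjusted p = 0.777). miR-672 had levels of 1.64, 1.69 and 1.54 on the FVB129B6 arrays and -1.17 and -0.61 on the FVB arrays, a difference of 2.52 ± 0.39 (SE, adjusted p = 0.00363). It was well above background on all 5 arrays, and its red difference was 1.09.

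miR-468, miR-667 and miR-346 were well above background on all 3 FVB129B6 arrays and on neither FVB array. Each fold is therefore given against the lowest level measured above background on each FVB array. A miRNA not measured on an array could lie above that level, so these folds are not strict lower bounds. For this fold, an FVB array whose own level lay under that lowest level was set to it. miR-468 had levels of 0.79, 0.71 and 0.24 on the FVB129B6 arrays and -3.62 and -3.10 on the FVB arrays. It was called higher (adjusted p = 0.00363), with a fold of 10.6 by this measure. miR-667 had levels of 0.38, 0.59 and -0.30 on the FVB129B6 arrays and -3.19 and -2.68 on the FVB arrays. It was called higher (adjusted p = 0.00634), with a fold of 7.78 by this measure. For miR-346 this fold was 7.20 (adjusted p = 0.00589), with levels of 0.50, 0.27 and -0.72 in FVB129B6 and -3.25 and -3.03 in FVB. With normexp background correction these folds of the 3 were smaller, at 1.98, 1.64 and 1.59. miR-297 was measured on 1 of the 2 FVB arrays and had levels of 0.66, 0.43 and -0.14 in FVB129B6 and -2.08 and -2.78 in FVB, a difference of 2.75 ± 0.45 (SE, adjusted p = 0.00380). In the red channel these 4 differed by 1.29, 1.09, 1.07 and 1.73, against 0.12 for miR-206 and -0.27 for miR-133b.

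In all, 23 miRNAs were well above background on the 3 FVB129B6 arrays and on no FVB array, and none showed the reverse. Of these 23, 8 were called higher, none lower and 15 were not called, and 20 had a difference above 0. Among all 261 tested, 8.05% were called higher. The 23 were picked by a detection pattern in the same direction, so the direction of their differences is not a separate result. The dimness of the FVB arrays moves with the count of 23, and its part was not tested. The 5 other miRNAs called higher under the 5 settings had differences from 0.70 to 1.84. One of them, miR-21, abundant in many tissues and raised in many tumors, had levels of 6.76, 6.38 and 6.82 on the FVB129B6 arrays and 6.04 and 5.88 on the FVB arrays, a difference of 0.70 ± 0.18 (SE, adjusted p = 0.0196). It was not called without FVB129B6 replicate 1 or 3 or FVB replicate 2.

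**Figure D3:**
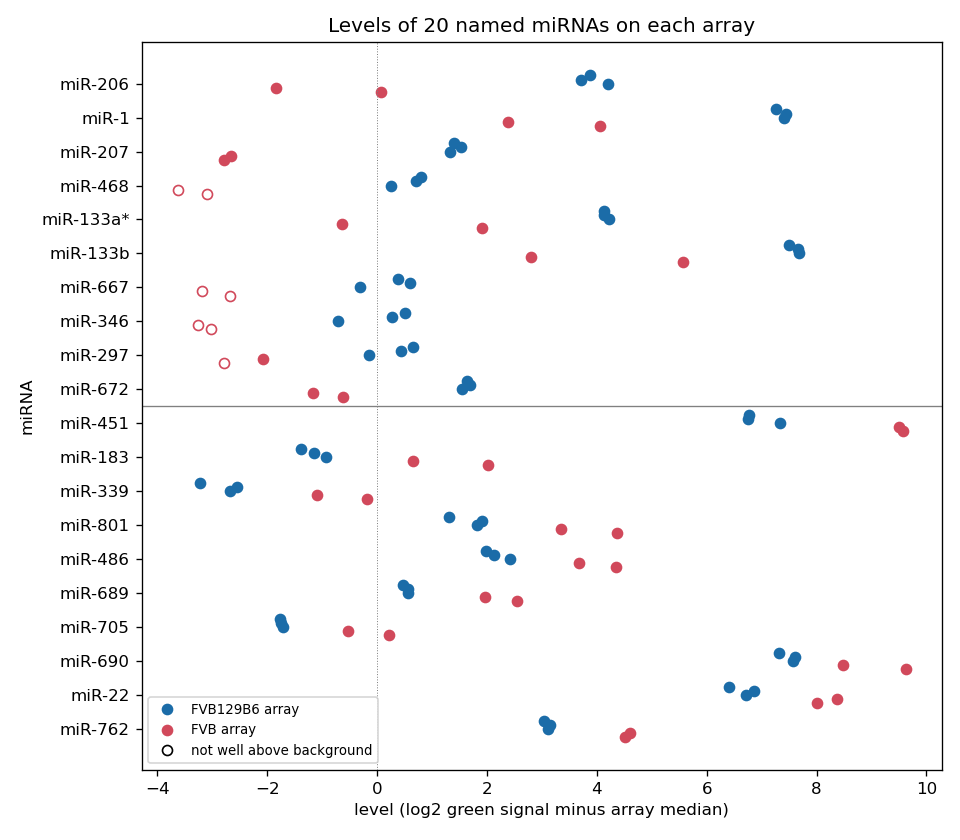
Level (log2 green signal minus array median) of the 20 named miRNAs on each of the 3 FVB129B6 arrays (blue) and 2 FVB arrays (red), with open circles where the miRNA was not well above background. The 10 miRNAs above the grey line were higher and the 10 below it lower in FVB129B6 glands. The 20 were picked for large differences, and for none of them do the arrays of the strains overlap. Among all 261 miRNAs tested, 15.3% did not overlap in the higher direction and 49.0% in the lower one.

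The 3 miRNAs of red blood cells were lower in FVB129B6 glands. miR-451, which is needed for the maturation of red cells, had levels of 6.76, 6.76 and 7.33 on the FVB129B6 arrays and 9.50 and 9.57 on the FVB arrays. Both FVB arrays lay more than 2 log2 units above each FVB129B6 array, and the difference was -2.59 ± 0.32 (SE, adjusted p = 0.00275). miR-144, its neighbour in the genome, had levels of -0.077, -0.63 and 0.54 in FVB129B6 and 1.79 and 1.41 in FVB, a difference of -1.66 ± 0.41 (SE, adjusted p = 0.0151) that was not kept under every one of the 5 settings, nor without FVB replicate 1. miR-486, which is abundant in red cells and in muscle, had levels of 1.99, 2.13 and 2.41 in FVB129B6 and 3.67 and 4.35 in FVB, a difference of -1.84 ± 0.31 (SE, adjusted p = 0.00380). All 3 erythroid miRNAs were thus called lower, against 31.4% of all miRNAs, with a median difference of -1.84 against -0.39. The summed level of the list was 6.83 to 7.39 on the FVB129B6 arrays and 9.53 and 9.61 on the FVB arrays. On the Balb/C arrays it was 7.67 to 8.72. In miR-451 the red channel differed by 0.13.

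miR-183 and miR-182 of the miR-183 cluster, which is expressed in sensory cells and in epithelium, were lower as well. miR-183 had levels of -1.38, -1.15 and -0.93 on the FVB129B6 arrays and 0.65 and 2.02 on the FVB arrays, a difference of -2.49 ± 0.42 (SE, adjusted p = 0.00380). miR-182 had levels of 4.15, 4.26 and 4.30 in FVB129B6 and 5.74 and 5.46 in FVB, a difference of -1.36 ± 0.21 (SE, adjusted p = 0.00363). The third member, miR-96, was not called, with levels of 4.25, 4.13 and 4.47 in FVB129B6 and 4.80 and 5.25 in FVB and a difference of -0.75 ± 0.26 (SE, adjusted p = 0.0553). The members of the miR-200 family, which keeps cells epithelial by repressing Zeb1 and Zeb2, did not pass the test. Levels of miR-200a were 7.23, 6.93 and 7.28 in FVB129B6 and 6.70 and 7.76 in FVB, and the difference was -0.082 ± 0.37 (SE, adjusted p = 0.869). miR-200b differed by -0.31 ± 0.41 (SE, adjusted p = 0.584), miR-141 by 0.32 and miR-205, of basal epithelium, by -0.16, none of them called. Of the 10 epithelial miRNAs, 2 were lower (20%, against 31.4% of all), none was higher and the median difference was -0.27 against -0.39, with a summed level of 9.01 to 9.36 on the FVB129B6 arrays and 9.02 and 9.93 on the FVB arrays. The differences of miR-200a and miR-200b turned above 0 under the 75th percentile (0.28 and 0.054).

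The other named miRNAs that were lower came from many loci. miR-22, a widely expressed miRNA, had levels of 6.41, 6.86 and 6.72 on the FVB129B6 arrays and 8.37 and 8.00 on the FVB arrays, a difference of -1.52 ± 0.23 (SE, adjusted p = 0.00363). miR-339 had levels of -3.22, -2.55 and -2.68 in FVB129B6 and -1.09 and -0.19 in FVB, a difference of -2.18 ± 0.32 (SE, adjusted p = 0.00363). miR-801 differed by -2.17 ± 0.37 (SE, adjusted p = 0.00380), with levels of 1.31, 1.92 and 1.82 in FVB129B6 and 3.34 and 4.36 in FVB. For miR-689, miR-705, miR-690 and miR-762 the differences were -1.72, -1.58, -1.55 and -1.46, with adjusted p from 0.00279 to 0.00666. miR-690 had levels of 7.32, 7.61 and 7.56 in FVB129B6 and 8.48 and 9.62 in FVB. Each of the 10 named lower miRNAs was well above background on both FVB arrays and on all 3 FVB129B6 arrays. The 11 lower miRNAs beyond these 10 had differences from -2.26 to -0.97, and include miR-551b, which was well above background on 1 of the 5 arrays, an FVB array, as well as miR-125a (-1.42), miR-124a (-1.43) and miR-148b (-1.21).

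The red channel was set beside the green one for all 36. Its differences had the sign of the green difference in 14 of the 15 higher and 20 of the 21 lower miRNAs, with medians of 0.61 and -0.39 against 3.16 and -1.46 in green. So did those of 188 of all 261 tested, and of 19 of the 21 called higher and 70 of the 82 called lower. Both channels were read from the same spots. With the green over red ratio, 9 of the 10 named higher and 4 of the 10 named lower miRNAs were called in the same direction, and 19 of the 36. Of all 261 tested, 39 were called under it, 25 higher and 14 lower. miR-183 (-1.13), miR-22 (-0.78) and miR-182 (-0.82) were not called under the ratio (limma adjusted p = 0.077, 0.052 and 0.063). The 4 muscle miRNAs were called under the ratio, with differences from 3.89 to 5.05. miR-451 was called at -2.37.

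**Figure D4:**
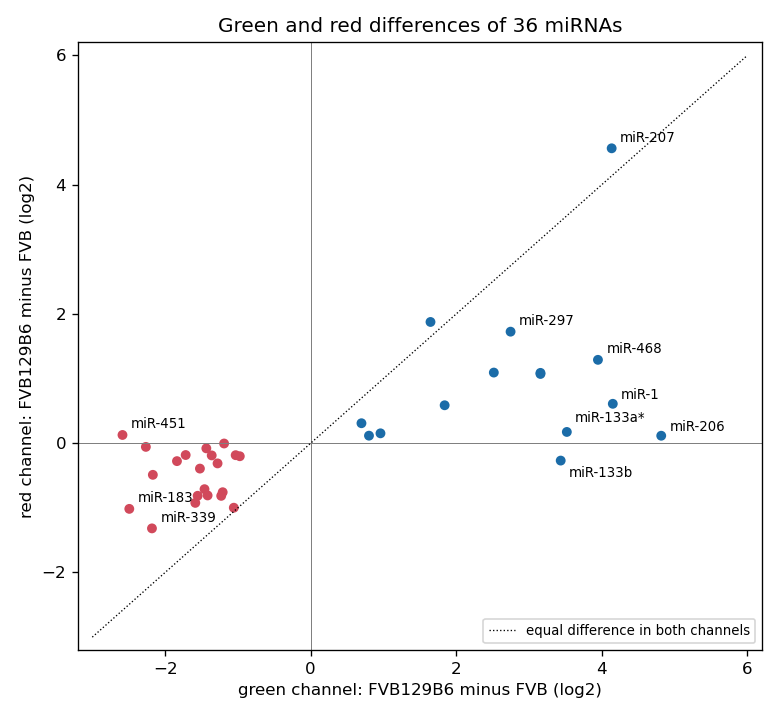
Difference of FVB129B6 minus FVB (log2, array median) in the green channel against that in the red channel, for the 36 miRNAs called with 1 sign under 5 settings. Blue points were higher and red points lower in FVB129B6 glands, and the dotted line marks equal differences; miR-207 lies on it at 4.13 and 4.56, while miR-206, miR-133a* and miR-133b lie near a red difference of 0.

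Under the array median, few immune or stromal miRNAs passed the test. Of 9 immune-cell miRNAs tested, 1 was lower (11.1%, against 31.4% of all) and none was higher. That one was miR-181a, of developing lymphocytes, with levels of 4.05, 4.09 and 4.28 in FVB129B6 and 4.66 and 5.73 in FVB and a difference of -1.06 ± 0.30 (SE, adjusted p = 0.0263). It was called under the array median alone of the 5 settings, became -0.52 without FVB replicate 2, and was also not called without FVB129B6 replicate 1 or 2. miR-223, of myeloid cells, had levels of 4.34, 4.35 and 4.67 in FVB129B6 and 4.31 and 4.43 in FVB, a difference of 0.084 ± 0.18 (SE, adjusted p = 0.720). It was called higher with the scale set on miRNAs well above background (0.61), quantile normalization (0.47) and normexp (0.77), with limma adjusted p of 0.0257, 0.0346 and 0.0117. miR-142-5p, found in all blood lineages, differed by -0.57 ± 1.04 (SE, adjusted p = 0.684). miR-146b differed by -0.82 ± 0.44 (SE, adjusted p = 0.170), with FVB replicate 2 as the highest array. The largest difference of the list was that of miR-150, -1.84 ± 1.29 (SE, adjusted p = 0.286). On Balb/C replicate 2, which enters the shared spread, miR-150 stood at 6.90, against 2.48 and 2.21 on the other Balb/C arrays. Without that array 3 of the list were lower (85 of all 256 were), and without FVB129B6 replicate 1 or 2 none was. None of the 6 stromal miRNAs was called, but with normexp 4 were higher (44 of all 261 were). Among them, miR-143 differed by -0.62 ± 0.23 (SE, adjusted p = 0.0636), and miR-145, its neighbour in smooth muscle and myoepithelium, by -0.69 ± 0.24 (SE, adjusted p = 0.0564). miR-199a and miR-199b, whose probes lie 1 base edit apart and whose signals cannot be told apart, differed by -0.12 and -0.11, and turned above 0 under the 75th percentile (0.25 for both). The endothelial miR-126-5p, the tested member of its list, was well above background on 1 of the 2 FVB arrays and had a difference of -0.99 ± 0.48 (SE, adjusted p = 0.136).

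Members of the neuronal and liver lists were lower or not called. Of 8 neuronal miRNAs tested, 4 were lower (50%, against 31.4% of all) and none was higher, and with the scale set on the miRNAs well above background 1 was lower. miR-124a had levels of 0.16, 0.11 and 0.11 in FVB129B6 and 1.44 and 1.68 in FVB, a difference of -1.43 ± 0.17 (SE, adjusted p = 0.00275). miR-138, a regulator of cell shape, differed by -1.18, and miR-129-5p, well above background on 2 of the 3 FVB129B6 arrays, by -1.36. miR-9, well above background on 1 of the 2 FVB arrays, differed by -1.20, which became -0.66 without FVB replicate 1. It was also not called without FVB129B6 replicate 1, 2 or 3 or Balb/C replicate 2. Of 4 liver miRNAs, 2 were called lower, against 31.4% of all. miR-194 differed by -0.87 ± 0.17 (SE, adjusted p = 0.00598) and was not called under the 75th percentile. miR-192 was well above background on none of the 3 FVB129B6 arrays and on 1 of the 2 FVB arrays, so its call (adjusted p = 0.00457) rests on signals near background and no size is given, while miR-215 (-0.79) and the liver-specific miR-122a (-0.50) were not called. The lactation list held miR-148a, abundant in milk, which had levels of 8.09, 7.91 and 8.23 in FVB129B6 and 7.58 and 8.46 in FVB and a difference of 0.054 ± 0.38 (SE, adjusted p = 0.923). miR-148b, its family member, differed by -1.21 ± 0.21 (SE, adjusted p = 0.00380) and was, with miR-138, 1 of 2 lower members of 6 (33.3%, near the 31.4% of all).

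The let-7 family, which represses growth-promoting genes, was lower under the array median. The probes of let-7a, let-7b, let-7c, let-7e and let-7f each lie 1 base edit from that of another member. Those of let-7d, let-7g and let-7i lie 2 edits away, so the signals of these members may not be fully separate. Of 9 members tested, 7 were lower (77.8%, against 31.4% of all) and none was higher, with a median difference of -0.82 against -0.39 and a range from -1.09 for let-7g to -0.16 for miR-98. Levels of let-7g were 6.27, 6.43 and 6.47 in FVB129B6 and 7.57 and 7.39 in FVB, a difference of -1.09 ± 0.18 (SE, adjusted p = 0.00380). let-7d, let-7c and let-7b differed by -0.87, -0.83 and -0.82. Its counts moved with the scale of the arrays. Under the 75th percentile its median was -0.45, with 2 lower (16.5% of all miRNAs were), and under quantile normalization -0.09, where let-7c stood at 0.10. No let-7 member was among the 36. The count was 5 without FVB129B6 replicate 1 or FVB replicate 2, and let-7b was not called without the latter. The miR-30 family had a median of -0.63 against -0.39, with 3 of its 5 members called lower (60%, against 31.4% of all). These were miR-30c (-1.04 ± 0.16 (SE, adjusted p = 0.00363)), miR-30a-5p (-0.63) and miR-30d (-0.56), while miR-30b (-0.44) was not called. Under the 75th percentile 1 of the 5 was lower, as without FVB129B6 replicate 1 or 2, and 2 were lower without FVB replicate 1 or 2.

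The growth-promoting miR-17 to miR-92 clusters stood above the middle of all miRNAs, with a median of 0.13 over 12 members against -0.39. Their differences ran from -1.59 to 0.54. 1 member, miR-25 (-0.58 ± 0.18 (SE, adjusted p = 0.0345)), was lower (8.33%, against 31.4% of all) and none was higher (8.05% of all were). It was not called without FVB129B6 replicate 1 or 2, Balb/C replicate 1 or 3 or FVB replicate 2. Under the 75th percentile 4 of the 12 were higher (15.3% of all miRNAs were), the median was 0.50 and none was lower (16.5% of all were). miR-20a had levels of 5.86, 5.47 and 5.93 in FVB129B6 and 5.21 and 5.57 in FVB, a difference of 0.37 ± 0.21 (SE, adjusted p = 0.203), miR-19b differed by 0.11 and miR-106b by -0.29, which became 0.075 under the 75th percentile.

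The imprinted Dlk1-Dio3 cluster had 34 tested members, of which 3 were higher, 3 lower and 28 not called, with a median of 0.11. Under the array median its 8.82% higher is near the 8.05% of all miRNAs, and its 8.82% lower stands against 31.4%. These counts moved with the setting. With the scale set on the miRNAs well above background, 10 were higher and none lower (50 and 22 of all 261 were). With normexp, 4 were higher and 14 lower (44 and 77 of all 261 were), with a median of -0.29. The 3 members higher under the array median were miR-667 above, miR-382 and miR-337 (0.80), and all were among the 36. miR-382 had levels of 0.43, 0.19 and 0.28 in FVB129B6 and -0.73 and -0.58 in FVB, a difference of 0.96 ± 0.16 (SE, adjusted p = 0.00380). The lower members miR-543 (-1.85), miR-665 (-1.16) and miR-494 (-0.82) were not. miR-665 was -0.45 without FVB replicate 2 and was called in 1 of the 8 fits that left out 1 array, the one without FVB replicate 1. miR-543, well above background on 2 of the 3 FVB129B6 arrays and 1 of the 2 FVB arrays, was not called without FVB129B6 replicate 1 or FVB replicate 1. The higher call of miR-337 was lost without FVB129B6 replicate 1 or 3 or either FVB array. Of the 9 members of the Sfmbt2 cluster, a large block of repeated miRNAs in an intron of Sfmbt2, 5 were higher (55.6%, against 8.05% of all), 2 lower (22.2%, against 31.4%) and 2 not called, with a median of 1.65. miR-468, miR-297 and miR-669c (1.65) were higher under the 5 settings, while miR-297b (3.09 ± 0.66 (SE, adjusted p = 0.00844)) and miR-669b (2.48) were not called with normexp. miR-297b was well above background on no FVB array, and its fold against the lowest level measured on each FVB array was 4.36. The probes of miR-297 and miR-297b lie 4 base edits apart. In the same cluster miR-466 (-1.97) and miR-467* (-2.22) were lower, but neither was called without FVB129B6 replicate 1 or 3 or FVB replicate 2, nor miR-466 without FVB129B6 replicate 2 and miR-467* without FVB replicate 1. miR-669c was not called without FVB129B6 replicate 2 or FVB replicate 1. The median red difference of the list was 1.29.

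**Figure D5:**
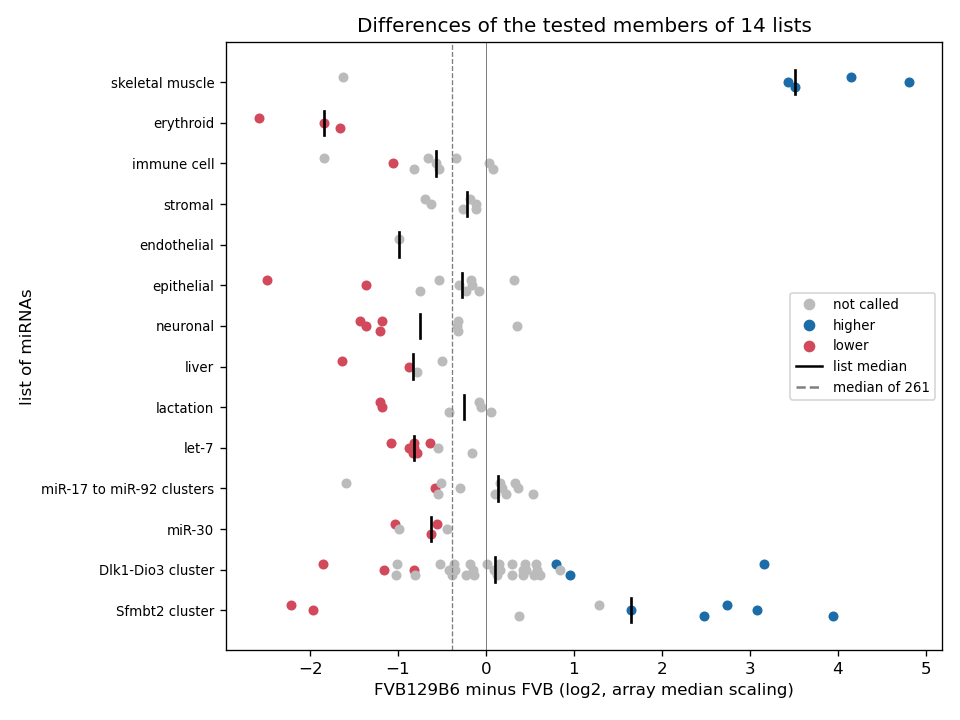
Difference of FVB129B6 minus FVB (log2, array median) for each tested member of 14 lists, coloured by its call, with the list median as a black bar and the median of the 261 as a dashed line. The muscle list lies at a median of 3.52, the erythroid list at -1.84 and the let-7 list at -0.82.

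By seed, 12 families had at least 3 tested members, 49 miRNAs in all. The family median was below 0 in 11 of the 12 under the array median and in 8 under the 75th percentile, and no family held members called in both directions. The lowest median was that of the seed CCCUGAG, -0.86, where miR-125a (-1.42) and miR-351 (-0.86, not called without FVB129B6 replicate 1 or 2 or FVB replicate 2) were lower and miR-125b (-0.39) was not called. The let-7 seed GAGGUAG followed at -0.82, and the miR-30 seed GUAAACA at -0.81 over its 4 members with a matched sequence, from -1.04 for miR-30c to -0.44 for miR-30b. Between them and 0 stood the seeds of miR-29 (AGCACCA, -0.64), of miR-25 and miR-92 (AUUGCAC, -0.54, from -0.58 for miR-25 to 0.04 for miR-32), of miR-181 (ACAUUCA, -0.53, from -1.06 for miR-181a to 0.32 for miR-181c), and of miR-34 (GGCAGUG, -0.51, from -0.71 for miR-34a to 1.21 for miR-449). miR-449 was not called and was well above background on no FVB array. For miR-29 the members ran from -0.70 for miR-29a to -0.28 for miR-29c. The miR-148 seed CAGUGCA had a median of -0.42, with miR-148b lowest and miR-148a highest. The miR-200b seed AAUACUG had -0.31, with a range from -0.54 for miR-200c to -0.23 for miR-429. The miR-130 seed AGUGCAA had -0.18 (miR-130a -0.36, miR-130b -0.14) and the miR-15 seed AGCAGCA -0.17 (miR-15b -0.67, miR-195 0.30), with no member called. The miR-17 seed AAAGUGC was the one above 0, with a median of 0.17, from -0.51 for miR-93 to 0.54 for miR-20b, and none of its 6 members called.

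The difference from FVB was compared between FVB129B6 and Balb/C through the contrast of those strains, since both share the FVB arrays. miR-346 was higher in FVB129B6 than in Balb/C by 2.80 (SE 0.55, adjusted p = 0.0332), and miR-486 lower by 1.39 on the log2 scale (SE 0.27, adjusted p = 0.0332). The other 18 were not called. Balb/C minus FVB had the sign of FVB129B6 minus FVB for all 20, with 5.40 for miR-206 and -2.26 for miR-183. Balb/C glands thus stood on the same side of FVB as FVB129B6 glands. Both contrasts use the same FVB arrays, on which the 20 were picked, so this agreement of sign is not a separate result. For miR-206 and miR-1 the contrast was -0.58 and -1.17 (adjusted p = 0.570 and 0.179), and for miR-451 it was -1.20 (adjusted p = 0.0683). These calls rested on single arrays. Without FVB129B6 replicate 1, 2 or 3, Balb/C replicate 2 or FVB replicate 2, limma called 0 of the 20, with 7, 9, 8, 7 and 14 of them at an unadjusted p under 0.05. It called 1 without FVB replicate 1 and 6 without Balb/C replicate 1.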

How the data were processed

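Total RNA of each gland was labelled with Hy3 and hybridized to a custom Agilent miRNA array. For each of the 11 arrays the authors deposited Feature Extraction output with green and red intensity values, which the program had background subtracted and dye normalized, median spot and background intensity values, and spot quality calls (program 10.5.1.1 for glands, 9.5.1.1 for tumors). They also deposited a log2 table of the 1336 plus-strand mouse spots, which differed from the log2 of the green intensity by 1 constant per array (SD 0).

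Green values were log2 transformed, centred on the array median, freed of outlier spots and averaged over the 4 spots of a miRNA. Tests covered the 261 of 334 miRNAs with at least 50% of spots well above background on 3 or more of the 8 gland arrays. The filter stands in for the detection calls of the methods, which name no test for strains. limma 3.58.1 (R 4.3.3) fitted the 8 gland arrays in 3 groups, with p-values adjusted by Benjamini-Hochberg and called under 0.05. On simulated data the fit gave no wrong sign but often missed differences near 1 on the log2 scale, and the pass criterion, first set above what it found there, was then loosened. Named are the 10 largest differences in each direction called with 1 sign under 5 settings, where every array of the brighter group was well above background, up to 4 members of each list, and the extremes of seed families. Members and lists were chosen with earlier results of these data known. Alternatives were other scalings and filters, a floor, normexp (offset 50) on the deposited median intensity values, green over red, an intensity trend, blocks, and each array left out. Precision is limited by the small number of arrays.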

Additional observations from a re-analysis of the deposited data

Results flagged for a closer look

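miR-346 and miR-486 differed from FVB by different amounts in the other strains, by limma's test of FVB129B6 minus Balb/C adjusted over 261 miRNAs. miR-346 was 2.80 higher in FVB129B6 than in Balb/C (adjusted p = 0.0332), with levels of -1.59, -3.03 and -3.73 on the Balb/C arrays. For miR-486 the difference was -1.39 (adjusted p = 0.0332), with levels of 3.70, 3.91 and 3.11 on the Balb/C arrays. Neither was called without any 1 of the 3 FVB129B6 arrays, without Balb/C replicate 2 or without FVB replicate 2.

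The red channel, outside the main measurement, held signal well above background for 87.3% of the 334 miRNAs on average over the 5 arrays, against 62.6 to 78.4% in green. What RNA it holds is not given in the sources used here.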

How the results depend on the processing

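The 2 FVB arrays limit every value: the median standard error was 0.26, and 101 of the 334 miRNAs were well above background on neither FVB array. The count of 103 called miRNAs became 179 with no normalization, 39 with green over red, 191 with no filter and 62 with a difference of at least 1 on the log2 scale. Called higher, 21 became 40 (75th percentile), 50 (median of the miRNAs well above background), 41 (quantile), 44 (normexp), 176 (no normalization) and 13 (well above background on all 5 arrays). Called lower, 82 became 43, 22, 50 and 3 (no normalization) in turn, 14 with green over red, 164 with no filter and 44 with the minimum difference. Without 1 array each, the count ran from 71 (without FVB129B6 replicate 1) to 110, the higher count from 17 to 25, and the lower count from 53 (without FVB129B6 replicate 1) to 85. The cause was not tested.

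Of the 2 named miRNAs called between FVB129B6 and Balb/C, 1 was called with the 75th percentile, quantile, green over red and slide row as a block, 0 when scaled on the miRNAs well above background (9 of 20 had an unadjusted p under 0.05 in limma), normexp (13 of 20) and the filter on all 5 arrays (6 of 20), and 4 with all 11 arrays. Without 1 array each it ran from 0 to 6.

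The replicate numbers did not pair the arrays: same-numbered FVB129B6 and FVB arrays had a mean correlation of -0.051 in their deviations from the group means over 2 pairs, against 0.026 over 4 others. With the replicate block 105 miRNAs were called, 26 higher and 79 lower, and 2 of the 20 named in the contrast with Balb/C; with it, miR-148a turned to -0.10. Slide row as a block gave 108.

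Differences changed sign, mostly from values that were not called, as follows. With the 75th percentile they became positive for miR-106b (0.075), miR-199a (0.25), miR-199b (0.25), miR-200a (0.28) and miR-200b (0.054). With the median of miRNAs well above background, for miR-106b (0.23), miR-122a (0.019), miR-199a (0.41), miR-199b (0.41), miR-200a (0.44), miR-200b (0.21) and miR-30b (0.084). With quantile normalization, for let-7c (0.10), miR-143 (0.31), miR-145 (0.14), miR-146b (0.10), miR-199a (0.030), miR-199b (0.015), miR-200a (0.48), miR-200b (0.21) and miR-30b (0.10). With normexp, for miR-106b (0.32), miR-142-5p (0.081), miR-143 (0.020), miR-199a (0.55), miR-199b (0.57), miR-200a (0.54), miR-200b (0.29), miR-25 (0.048), miR-30b (0.18) and miR-30d (0.0082). With green over red, for miR-106b (0.18), miR-126-5p (0.089), miR-145 (0.093), miR-181a (0.011), miR-199a (0.57), miR-199b (0.47), miR-200a (0.21), miR-200b (0.11), miR-207 (-0.078), miR-30b (0.029) and miR-30d (0.13), of which miR-207 turned from above to below 0. With no normalization, for let-7b (0.59), let-7c (0.58), let-7d (0.54), let-7g (0.33), miR-106b (1.12), miR-122a (0.91), miR-126-5p (0.43), miR-129-5p (0.051), miR-138 (0.23), miR-142-5p (0.84), miR-143 (0.79), miR-145 (0.72), miR-146b (0.59), miR-148b (0.20), miR-181a (0.36), miR-182 (0.053), miR-194 (0.54), miR-199a (1.30), miR-199b (1.30), miR-200a (1.33), miR-200b (1.10), miR-215 (0.62), miR-25 (0.83), miR-30a-5p (0.79), miR-30b (0.97), miR-30c (0.38), miR-30d (0.85), miR-665 (0.26) and miR-9 (0.21). Without 1 array each, miR-200a (-0.61 to 0.45), miR-148a (-0.39 to 0.49), miR-223 (-0.022 to 0.15), miR-19b (-0.16 to 0.38), miR-199a (-0.43 to 0.20), miR-199b (-0.39 to 0.16) and miR-200b (-0.95 to 0.32) crossed 0. The 20 named miRNAs were selected for keeping 1 sign under the 5 settings, so that is not a result. None of their differences changed sign without any 1 array.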
